A study of Sus scrofa with 8 samples.

Results

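Isolated intergenic H3K27ac peaks were the stretches of acetylated chromatin in pig embryonic fibroblasts (PEFs) that stood alone between genes, away from annotated start sites. They were chosen by measured peak calls. A peak of H3K27ac replicate 1 on chromosomes 1 to 18 or X was taken when it overlapped a peak of replicate 2 and no H3K4me3 or CTCF peak of either replicate, and lay more than 2.5 kb from every RefSeq transcription start site (TSS). In addition, no other peak that met these conditions lay within 12500 bp, and the summit, the position of highest signal, was outside all gene bodies. This left 3744 of 74448 peaks (5.03%), or 1906 if isolation was asked from every H3K27ac peak shared by the replicates. Of the 74448, 64325 were shared by both replicates, 50857 of these were far enough from a TSS, 31563 of those overlapped no H3K4me3 peak, 28379 also overlapped no CTCF peak, and 10991 of these distal peaks were isolated. The remaining 7247 isolated peaks had their summit inside a gene.

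The cells were untreated fibroblasts of Large White pigs, taken from fetuses at an age of 35 days, dissociated with collagenase and cultured for a short time. H3K27ac (antibody Abcam, ab4729), H3K4me3 (Abcam, ab8580) and CTCF (Abclonal, A1133) were each measured by chromatin immunoprecipitation and sequencing in 2 replicate libraries, and all 6 peak lists were used. No source used here says that replicates came from separate cultures or fetuses, so the spread between them may be technical. The labels list 1 input for the histone marks and 1 for CTCF. Replicates of a mark thus appear to share an input, and their spread leaves out its variation. The lists held no read counts, and the depth behind a value is unknown from them. All 10 of 10 fibroblast marker genes (COL1A1, COL1A2, COL3A1, VIM, PDGFRA, PDGFRB, THY1, S100A4, FAP and DCN) had both H3K4me3 and H3K27ac within 1 kb of the TSS in both replicates. Of 14 markers of other cell types, 6 had H3K4me3 (EPCAM, CDH1, CD34, MYOD1, SOX2 and SYN1) and 0 had both marks. MYOG had H3K27ac only, and KRT5, PTPRC, PECAM1, CDH5, ALB, POU5F1 and GFAP had neither. Over all protein-coding genes, 68.9% had H3K4me3 and 60.7% had H3K27ac by the same measure.

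Acetylation of lysine 27 on histone H3 is laid down by the coactivators CBP and p300 and marks active promoters and active enhancers. Promoters also carry H3K4me3, and CTCF binds insulators and loop anchors, so that a peak with neither, far from a gene start, has the profile usually given to a candidate enhancer. In fibroblasts many enhancers are bound by AP-1, a dimer of FOS and JUN family proteins, which recognises a short palindrome and is induced by growth factors in serum. Enhancer activity was not measured here.

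The sequence of the peaks showed this palindrome in many of them. Stretches from the Sscrofa11.1 genome (RefSeq), each intergenic and written 5′ to 3′ on the plus strand, are given here with every match to the AP-1 motif (TGANTCA, where N is any base) in capitals. The first group holds 300 bp centred on the replicate 1 summit of peaks with the most matches there, and each peak is called by its nearest protein-coding gene.
METTL15, chr2:32431802-32432101: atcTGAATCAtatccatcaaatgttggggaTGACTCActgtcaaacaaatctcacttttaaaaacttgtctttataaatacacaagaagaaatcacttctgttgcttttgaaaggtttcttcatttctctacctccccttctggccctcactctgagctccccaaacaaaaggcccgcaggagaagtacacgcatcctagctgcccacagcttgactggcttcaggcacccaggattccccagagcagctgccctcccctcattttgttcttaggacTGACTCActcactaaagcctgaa
GLRA1, chr16:71114838-71115137: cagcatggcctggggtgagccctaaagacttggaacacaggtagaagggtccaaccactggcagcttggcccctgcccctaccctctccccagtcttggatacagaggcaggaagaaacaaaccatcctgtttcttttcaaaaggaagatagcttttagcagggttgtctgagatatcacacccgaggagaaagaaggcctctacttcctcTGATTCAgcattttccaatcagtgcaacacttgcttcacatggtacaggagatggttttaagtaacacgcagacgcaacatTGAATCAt
GALNT8, chr5:65753331-65753630: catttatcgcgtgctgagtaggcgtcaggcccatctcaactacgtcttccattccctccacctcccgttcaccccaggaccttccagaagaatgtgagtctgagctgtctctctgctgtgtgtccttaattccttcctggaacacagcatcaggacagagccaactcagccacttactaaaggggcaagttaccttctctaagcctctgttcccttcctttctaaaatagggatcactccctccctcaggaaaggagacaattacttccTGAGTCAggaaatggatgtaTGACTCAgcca
The peak near METTL15 had 3 matches in this window, the most of any member. The peaks near GLRA1 and GALNT8 had 2 each, as did 48 others, and were taken from these ties for their fold enrichment. Only 1 of the 3 matches at METTL15 fell inside the called peak, which was 387 bp wide. The next group holds 100 bp around the match closest to the summit in peaks of high enrichment or near genes with many such peaks. None of these peaks held a match in its 300 bp summit window. They are examples and cannot show how matches were spread around summits.
ASAP1, chr4:10035500-10035599: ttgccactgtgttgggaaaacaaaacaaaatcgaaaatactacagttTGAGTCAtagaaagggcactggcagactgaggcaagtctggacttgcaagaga
LOC100738684, chr10:66069605-66069704: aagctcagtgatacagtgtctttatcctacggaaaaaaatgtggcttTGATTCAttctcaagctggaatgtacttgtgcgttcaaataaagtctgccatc
ZEB2, chr15:7363753-7363852: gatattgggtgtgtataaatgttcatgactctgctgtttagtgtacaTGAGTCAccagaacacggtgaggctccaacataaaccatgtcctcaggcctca
PGM2, chr8:29253203-29253302: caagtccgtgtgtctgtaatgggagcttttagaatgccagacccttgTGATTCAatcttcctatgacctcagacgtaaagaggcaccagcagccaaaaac
INHBA, chr18:52727788-52727887: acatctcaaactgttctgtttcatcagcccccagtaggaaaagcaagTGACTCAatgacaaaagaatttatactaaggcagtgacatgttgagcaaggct
MYC, chr4:12652699-12652798: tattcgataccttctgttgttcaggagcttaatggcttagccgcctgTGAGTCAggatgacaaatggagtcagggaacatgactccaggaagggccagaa
ACVR2A, chr15:5867665-5867764: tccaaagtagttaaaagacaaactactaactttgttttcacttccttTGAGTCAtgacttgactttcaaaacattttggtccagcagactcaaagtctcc
RND3, chr15:1832602-1832701: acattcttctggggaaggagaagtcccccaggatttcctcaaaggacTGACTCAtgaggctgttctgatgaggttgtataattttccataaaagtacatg
ADAMTS5, chr13:190821737-190821836: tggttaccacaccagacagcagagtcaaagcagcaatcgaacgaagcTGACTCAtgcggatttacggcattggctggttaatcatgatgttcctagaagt
The match was 565 bp from the replicate 1 summit at ASAP1, 152 bp at LOC100738684, 236 bp at ZEB2, 233 bp at PGM2, 440 bp at INHBA, 213 bp at MYC, 371 bp at ACVR2A, 281 bp at RND3 and 438 bp at ADAMTS5. In 7 of these 9 matches the base in the middle was G or C, and in the 2 at LOC100738684 and PGM2 it was T. Peaks of the same ranks nearest to ERRFI1 and CITED2 held no match in the replicate 1 peak and are not shown.

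AP-1 motifs were densest on both sides of the summit, less dense at it and sparsest far from it. With replicate 1 summits, the density was 0.553 matches per kb within 100 bp of the summit, 1.09 per kb between 200 and 400 bp away, and 0.382 per kb beyond 1500 bp. With the 3728 peaks obtained when replicate 2 was the starting list, the densities were 0.507, 1.10 and 0.384 per kb. The flanking zone was thus 2.85 and 2.87 times as dense as the outer zone, with 1.09 per kb to the left and 1.08 per kb to the right in replicate 1. The same ratio was 2.70 and 2.71 in isolated intragenic peaks, 2.28 and 2.19 in clustered intergenic peaks, and 1.96 and 1.94 in clustered intragenic peaks, so that both replicates gave the same order.

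The middle base of the motif divided this pattern. Sites with G or C in the middle (TGAGTCA on either strand), the form that AP-1 dimers prefer, had 0.744 and 0.750 matches per kb in the flanking zone of the replicates against 0.168 and 0.173 in the outer zone, ratios of 4.42 and 4.33. Sites with A or T in the middle (TGAATCA on either strand) gave ratios of 1.61 and 1.68. In 1000 bp windows at the summit, the G or C form was present in 46.3% ± 0.181 (SD, n = 2 replicates) of windows against 14.9% of intergenic 1000 bp tiles, and the A or T form in 25.01% ± 0.322 against 19.1%. With replicate 1 the G or C form was in 46.4% of the members' 1000 bp windows. It was in 39.7% for isolated intragenic, 37.9% for clustered intergenic and 30.2% for clustered intragenic peaks. The split by middle base was chosen after the profile of the whole motif had been seen.

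**Figure D1:**
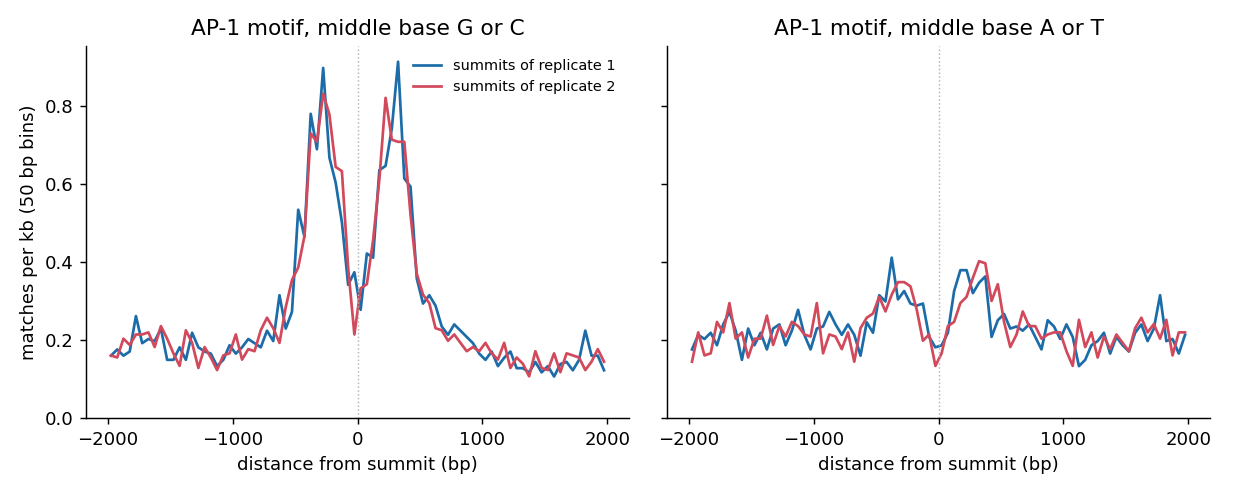
AP-1 motif matches per kb in 50 bp bins against distance from the summit in bp, for isolated intergenic H3K27ac peaks, with G or C (left) or A or T (right) as the middle base and 1 line per replicate. The G or C form rises on both sides of the summit, to 0.913 per kb at 325 bp in replicate 1 and 0.832 per kb at -275 bp in replicate 2, with a dip at the summit. The A or T form is lower in these flanks but slightly higher in the outer zone, at 0.213 against 0.168 per kb in replicate 1 and 0.211 against 0.173 in replicate 2.

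Counted per peak, 624 of 3744 summit windows of 300 bp held an AP-1 match (16.7%, 95% Wilson interval 15.5 to 17.9%), and 605 of 3728 with replicate 2 as the starting list (16.2%). Intergenic tiles of the same length, more than 2.5 kb from a TSS, held one in 10.5% of cases. In windows of 1000 bp the counts were 2272 (60.7%) and 2249 (60.3%), against 31.2% of tiles. With replicate 1 the 1000 bp share was 54.0% in isolated intragenic peaks, 53.3% in clustered intergenic, 45.1% in clustered intragenic and 21.5% in peaks near a TSS. A match lay somewhere in the replicate 1 peak of 2218 members (59.2%), and 929 (24.8%) held 2 or more, up to 10 at INHBA. The intervals cover counting error only.

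Where the replicates placed the summit apart, an AP-1 match was more frequent halfway between the summits than at either of them. In 547 peaks the 2 summits were 400 to 900 bp from each other, and 300 bp windows held an AP-1 match in 16.8% of cases at the replicate 1 summit and in 15.4% at the replicate 2 summit. Halfway between them the share was 38.9% (213 of 547, 95% Wilson interval 34.9 to 43.1%). In 1658 peaks whose summits lay within 100 bp of each other, the shares were 15.2%, 14.7% and 14.8%. Over all members, centring the window on the middle of the peak gave 27.6% (1034 of 3744) and, with replicate 2 as the starting list, 26.6% (992 of 3728). A summit window alone therefore held fewer AP-1 matches than the middle of the peak.

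Of the other motifs searched, the CRE alone was over 1.5 times as dense at 200 to 400 bp as in the outer zone, with ratios of 3.00 and 3.39 from few matches, and for the rest the ratio was between 0.651 and 1.43. Each motif was searched on both strands, and shares are means of the 2 replicates in 300 bp summit windows, beside those of tiles. The E-box CAGCTG, bound by TWIST and related basic helix-loop-helix factors, was in 18.6% ± 0.643 (SD, n = 2) of windows against 13.2% of tiles, and was densest at the summit (0.745 and 0.734 per kb, against 0.541 and 0.556 in the outer zone). The ETS motif CCGGAAG was in 1.27% ± 0.0985 against 0.637%, the SP/KLF motif GGGGCGG in 2.41% ± 0.182 against 1.59%, and AGGGGGC, the core of the CTCF motif, in 4.56% ± 0.0808 against 2.75%. These 4 are rich in G and C, and GC content was itself higher, at 45.2% and 45.9% in the replicates' windows against 40.7% in tiles. Its part in these shares was not tested. With replicate 1, isolated intragenic and clustered intergenic peaks held the E-box in 17.7% and 19.8% of windows, against 18.1% of members. Their GC content was 45.2% and 46.6%.

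In the 300 bp summit windows, OCT, GATA, SOX, TALE/HOX and C/EBP motifs were rarer than in tiles. The octamer ATGCAAAT, bound by OCT factors, was in 1.22% ± 0.167 (SD, n = 2) of windows against 3.08% of tiles, AGATAA, bound by GATA factors, in 16.7% ± 0.385 against 20.9%, and the SOX motif AACAATG in 4.31% ± 0.101 against 5.86%. The TALE/HOX motif TGATTNAT was in 4.34% ± 0.290 against 6.87%, and the C/EBP motif TTGCNNAA in 13.4% ± 0.489 against 15.3%. With replicate 1, isolated intragenic and clustered intergenic peaks were also below tiles for each of these motifs. The octamer was in 1.34% and 1.72% of their windows, GATA in 17.97% and 16.2%, and SOX in 4.76% and 4.55%. TALE/HOX was in 4.55% and 5.22%, and C/EBP in 12.8% and 12.8%. Low shares were thus not particular to the members. The part of GC content in them was not tested. In 1000 bp windows the members' C/EBP share was instead above tiles, at 45.6% ± 0.335 against 42.6%. The TEAD motif CATTCC (16.6% ± 1.502 against 15.4%), the RUNX motif TGTGGTT (6.40% ± 0.246 against 6.97%) and the HNF4 motif CAAAGTC (4.36% ± 0.467 against 4.39%) were close to tiles. The remaining shares were the NFI site TTGGCA at 16.4% ± 0.594 against 15.3%, the FOX motif TGTTTAC at 4.62% ± 0.374 against 4.15%, and the CArG box of serum response factor at 2.13% ± 0.240 against 2.11%. The CRE TGACGTCA, which AP-1 related ATF and CREB factors bind, was rare, at 0.870% ± 0.0920 of 1000 bp windows against 0.397% of tiles. A match is a description of the letters and does not show that the factor was bound.

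Fewer bases of the windows lay in annotated repeats than elsewhere between genes. Repeat-masked bases made up 24.2% of the replicate 1 windows and 23.9% of the replicate 2 windows (24.0% ± 0.223, SD, n = 2), against 38.8% of intergenic tiles. With replicate 1 the share was 24.9% in isolated intragenic and 22.3% in clustered intergenic peaks, so a low share was not particular to the members. The summit itself lay in a repeat in 24.9% and 22.6% of members.

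Enrichment was modest in most members. Fold enrichment, the peak caller's ratio of signal over input at the summit, had a median of 4.38 in replicate 1 and 4.46 in the overlapping replicate 2 peaks (4.42 ± 0.0607, SD, n = 2). It ranged from 1.91 to 38.2 and from 2.00 to 44.7, with quartiles of 3.44 and 5.89 in replicate 1 and of 3.50 and 6.20 in replicate 2. Peaks had a median width of 1072.5 and 1003.5 bp. A fold enrichment of at least 10 in both replicates was found in 186 members (4.97%), a count not made for other classes. These values come from the peak calls that chose the members and are given as a description.

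Against other H3K27ac peaks the differences were small beside the range within each class. The members' median was higher than that of isolated intragenic peaks by 0.361 in replicate 1 and 0.273 in replicate 2 (0.317 ± 0.0626, SD, n = 2). It was higher than that of all clustered distal peaks by 0.359 and 0.103 (0.231 ± 0.181), but differed from that of clustered intergenic peaks by -0.0423 and -0.214 (-0.128 ± 0.121). Peaks near a TSS had medians of 13.9 and 16.6. The classes were compared within each library, and with 2 libraries an exact two-sided paired permutation test cannot give a p below 0.5, so no test was run.

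**Figure D2:**
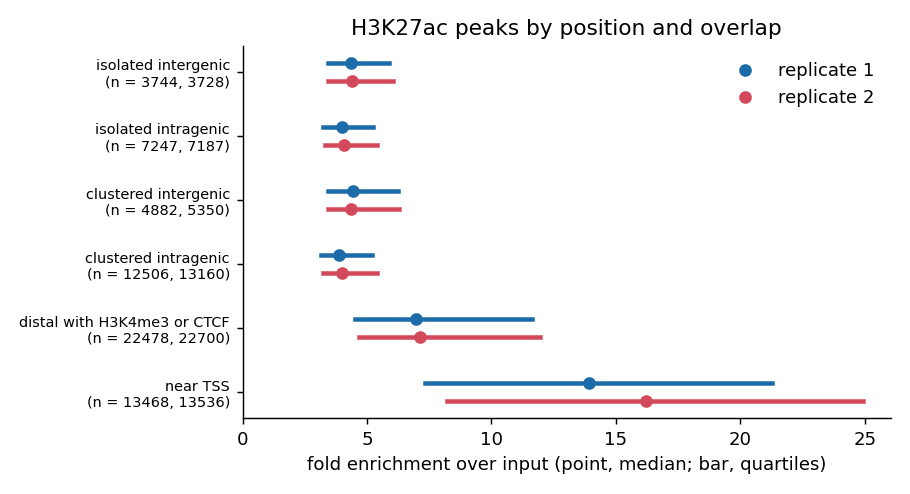
Fold enrichment over input (horizontal axis) of shared H3K27ac peaks by class, with a point for the median and a bar for the quartiles in each replicate taken as the starting list. Isolated intergenic peaks have medians of 4.38 and 4.39, near those of the other distal classes without H3K4me3 or CTCF and below those near a TSS.

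Most members were found alike in both replicates, but overlap with a replicate 2 peak was a condition of membership, so agreement was partly set by the rule. The replicate 2 partner was itself a member when replicate 2 was the starting list in 3358 cases (89.7%), the overlap covered 50% of both peaks in 3065 (81.9%), and the fold enrichments were within 1.5 times of each other in 3298 (88.1%). The summits were within 200 bp in 2459 members (65.7%). In 386 members the partner did not meet the conditions, and there the median was 4.47 in replicate 1 and 5.27 in replicate 2, against 4.37 and 4.39 in the other 3358. The partner was over 3 times as wide in 73 members (1.95%) and had its summit outside the member in 305 (8.15%). A high value in replicate 2 alone was thus at times the value of a wider neighbouring domain. Spearman's rank correlation between the replicates' fold enrichments was 0.728 over the 3744 members, as a description of peaks that share libraries. It was 0.862 over all shared peaks, 0.709 in clustered intergenic and 0.672 in isolated intragenic peaks.

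**Figure D3:**
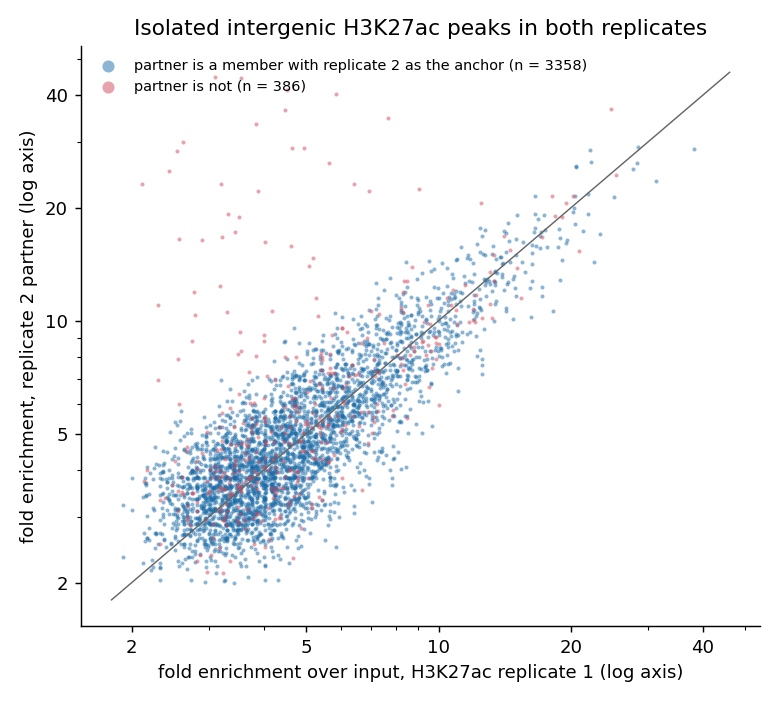
Fold enrichment of each isolated intergenic H3K27ac peak in replicate 1 (horizontal) and in its replicate 2 partner (vertical), both on log axes, with the line of equality, for 3358 members whose partner is also a member (blue) and 386 whose partner is not (red). Most points follow the line, and most of those far above it are red.

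Of the 6 members with the highest mean fold enrichment, the first, at chr4:10034188-10038513, was 65.3 kb from ASAP1, an Arf GTPase-activating protein of focal adhesions, with a fold enrichment of 38.2 in replicate 1 and 28.7 in replicate 2. A peak at chr6:68772561-68775380, 89.9 kb from ERRFI1, a feedback inhibitor of the EGF receptor, had 28.4 and 29.0. Its replicate 1 peak held no AP-1 match. A peak 133 kb from ZEB2, a repressor that promotes the mesenchymal state (chr15:7362225-7365678), had 31.3 and 23.7. One 52.2 kb from PGM2, an enzyme of sugar phosphate metabolism (chr8:29249293-29255420), had 28.3 and 26.4.

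The peak at chr18:52722432-52731717, 158 kb upstream of INHBA, had 27.7 and 25.4. INHBA encodes the subunit of activin A. With a width of 9286 bp in replicate 1 and 9343 bp in replicate 2, this peak was the second widest member. The peak at chr10:66066560-66072403, nearest to LOC100738684, had 24.7 and 36.7, but its partner was 15776 bp wide with a summit 8118 bp away. The widest member, 10414 bp at chr1:121955366-121965779 and 174 kb from DTWD1, was part of a partner of 54837 bp and had 7.67 in replicate 1 against 34.8 in replicate 2. Both are members whose replicate 2 value belongs to a larger domain.

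The lowest members were close to the weakest calls in the lists. Peaks nearest to C15H2orf76 (1.91 and 2.35), CCNG1, a cyclin (2.32 and 2.03), and RASA2, a Ras GTPase-activating protein (2.21 and 2.17), had the 3 lowest mean fold enrichments. Of all members, 62 (1.66%) had a q-value above 0.01 in replicate 1 and 43 (1.15%) in replicate 2. The share was 3.06% in each whole H3K27ac list and 1.61% among all shared peaks of replicate 1. In that replicate it was 2.87% of isolated intragenic and 2.05% of clustered intergenic peaks.

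Values at the thresholds were as follows. Just inside the TSS limit, peaks nearest to SATL1 and CC2D2A lay 2514 and 2523 bp from a TSS, with fold enrichments of 7.60 and 7.02, and of 6.35 and 8.37, in replicates 1 and 2. Just outside it, peaks nearest to SLC41A3 and NAGK lay at 2500 and 2495 bp and had 3.30 and 4.58, and 3.18 and 4.39. Just inside the isolation limit, a peak nearest to PLXNA2 was 12511 bp from the next and had 10.8 and 12.1, and one nearest to LOC110255918 was 12520 bp away and had 6.35 and 7.01. Just outside, a peak nearest to CITED2 was 12480 bp from the next, with 3.72 and 2.95, and one nearest to LOC106506652 was 12478 bp away, with 8.03 and 10.1.

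Members were denser towards gene starts. Their median distance to the nearest TSS of any gene, measured from the edge of the peak, was 37448 bp, against 59265 bp for intergenic tiles, with quartiles of 13434 and 97386 bp. The same median was 37847.5 bp in clustered intergenic and 31836 bp in isolated intragenic peaks of replicate 1. Per Mb of intergenic sequence there were 5.45 members at 2.5 to 10 kb from a TSS, 4.44 at 10 to 50 kb, 3.85 at 50 to 100 kb, 2.54 at 100 to 500 kb and 2.07 beyond 500 kb, where 73 members lay. The lower end of this range is fixed by the 2.5 kb limit. Along the same 5 classes the share with an AP-1 match in 1000 bp went from 57.4% through 58.5%, 61.2% and 66.1% to 68.5%, while the median fold enrichment stayed between 4.10 and 4.47 in replicate 1 and between 4.30 and 4.65 in replicate 2. The farthest member lay 1066587 bp from a TSS, nearest to PCDH9, a protocadherin, and had 7.88 and 4.62. The next farthest were nearest to CELF4, an RNA-binding protein (4.68 and 3.84), and FLRT2, a cell adhesion protein (4.56 and 3.82).

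**Figure D4:**
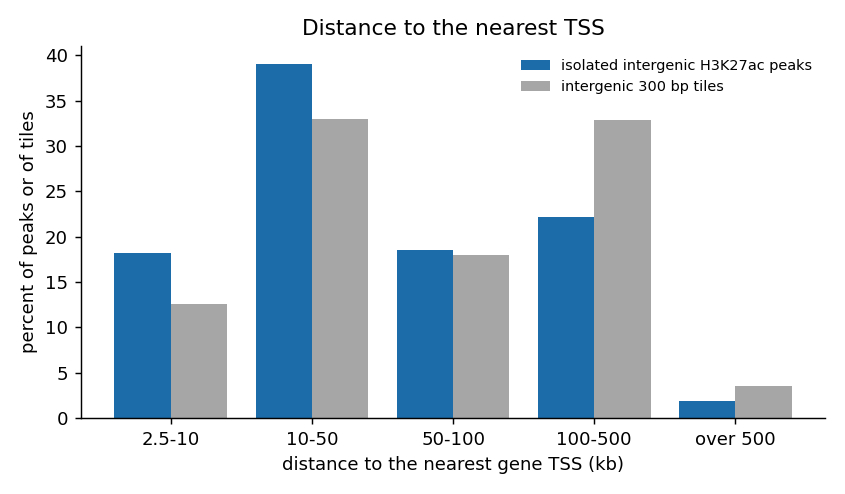
Percent of isolated intergenic H3K27ac peaks (blue) and of intergenic 300 bp tiles (grey) in each class of distance to the nearest TSS in kb. Peaks exceed tiles at 2.5 to 10 kb (18.2% against 12.6%) and 10 to 50 kb (39.1% against 33.0%), and fall below them at 100 to 500 kb (22.2% against 32.9%).

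Chromosomes differed in density. The autosomes held 3.90 members per intergenic Mb, from 2.85 on chromosome 11 to 5.24 on chromosome 12, and the X chromosome held 1.65 (110 members). The sex of the fetuses is not given in the labels, so the number of X copies is unknown.

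Isolated peaks were not far from all other peaks, since isolation was asked only against peaks of the same kind. Another H3K27ac peak of the same replicate list lay within 12500 bp of 56.3% of members in either replicate, against 26.6% and 26.9% of tiles. An H3K4me3 peak lay within that distance of 41.8% and 49.8% (tiles, 23.2% and 27.2%), and a CTCF peak within that distance of 38.8% and 42.9% (tiles, 28.1% and 30.8%). When sequence was divided at CTCF peaks shared by both replicates, the median interval around a member was 106669 bp, and 2464 of the 2997 intervals that held any member held 1. A protein-coding gene with H3K4me3 at its TSS was in the interval of 31.9% of members, against 25.9% of tiles. The TSS of the nearest protein-coding gene was inside the interval for 35.7% of members and for 32.1% of tiles.

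The nearest protein-coding gene usually carried a promoter mark. It had H3K4me3 within 1 kb of its TSS in both replicates for 2902 of 3744 members (77.5%, 95% Wilson interval 76.1 to 78.8%), against 68.9% of all 19487 protein-coding genes and 71.3% of intergenic tiles. At other H3K27ac peaks of replicate 1 the share was 77.4% for clustered intergenic, 81.3% for isolated intragenic and 82.7% for all shared peaks, so the members were close to the first and below the others. It had H3K27ac for 2680 members (71.6%), against 60.7% of all protein-coding genes and 54.9% of tiles. For the other 842 members it had no such H3K4me3. Nearness does not show which gene a peak acts on. In all, 2450 protein-coding genes (12.6%) were nearest to at least 1 member, 1744 of them to exactly 1 and 282 to 3 or more. The stretch of genome for which a gene's TSS is the nearest, its territory, gene bodies included, differs in size between genes. Marked genes held more members per Mb of territory than unmarked ones in each class of territory, with 1.49 against 1.13 up to 50 kb, 1.73 against 1.40 at 50 to 200 kb, 1.76 against 1.62 at 200 to 500 kb and 1.55 against 1.11 above.

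MYC, a transcription factor that drives growth and proliferation, was the nearest gene of most members, 15 in a territory of 1351 kb on chromosome 4. This made 11.11 members per Mb of territory, against 1.57 over all protein-coding genes. Territories include gene bodies, where no member summit can lie, so this measure depends on how much of a territory is intergenic. Over all intergenic sequence more than 2.5 kb from a TSS there were 3.75 members per Mb. The 15 lay 3.41 to 818 kb from the MYC TSS, with 6 upstream. They had fold enrichments of 2.71 to 12.6 in replicate 1 and 2.46 to 7.60 in replicate 2. The strongest, at chr4:12651672-12655777, was 191 kb from the MYC TSS and had 12.6 and 7.60.

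ACVR2A, a type II receptor for activin, had 12 members, all upstream and 209 to 1608 kb away (7.05 per Mb), with 2.90 to 8.73 in replicate 1 and 3.17 to 7.92 in replicate 2. RND3, a small G protein that loosens actin stress fibres, had 10 within 329.5 kb (12.8 per Mb), with 3.82 to 9.37 and 3.82 to 7.62. ADAMTS5, an enzyme that cleaves aggrecan, had 9 (2.76 to 10.5 and 2.12 to 8.40), and CITED2, a partner of CBP and p300, had 9 (2.56 to 5.60 and 3.22 to 16.5, the last from a partner of 3767 bp for a member of 491 bp). EYS, INHBA, INTU and PLXNA2 also had 9 and are named because of that tie, after their values were seen. Of these 9 genes, EYS alone had neither H3K4me3 nor H3K27ac at its TSS.

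**Figure D5:**
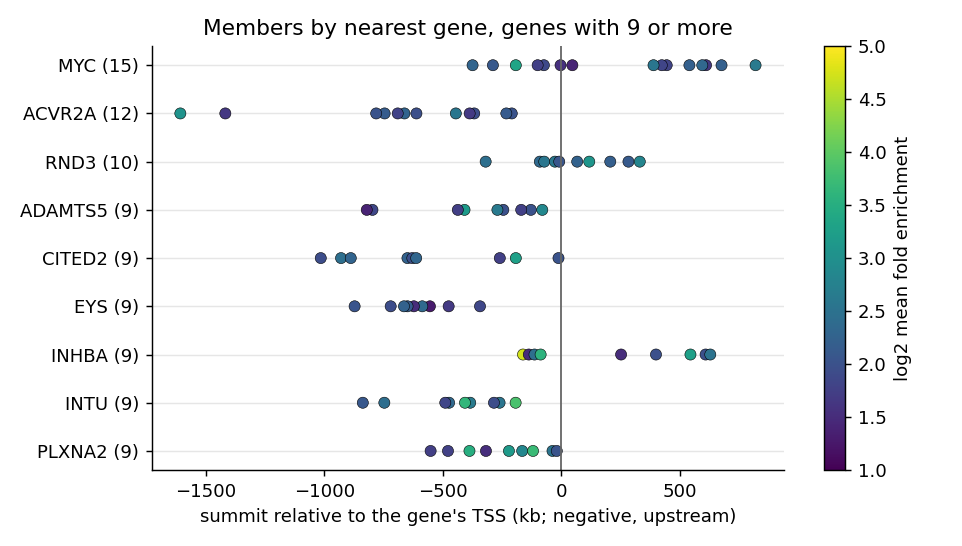
Summits of isolated intergenic H3K27ac peaks relative to the TSS of their nearest protein-coding gene in kb (negative, upstream), for the 9 genes with the most, numbers of members in brackets, coloured by log2 of the mean fold enrichment of both replicates. Members of ACVR2A, ADAMTS5, CITED2, EYS, INTU and PLXNA2 are all upstream, and those of MYC, RND3 and INHBA lie on both sides.

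The gene lists had median territories of 58.8 to 332 kb, against 51.4 kb over all protein-coding genes. Their counts are therefore given with members per Mb of territory. This was 1.57 over all protein-coding genes, of which 12.6% were nearest to a member. Gene bodies are part of a territory, and over intergenic sequence alone there were 3.75 members per Mb. A list between these values was not shown to be denser than intergenic sequence at large. Of 23 matrix genes, 12 (52.2%) were nearest to a member (27 members, 4.85 per Mb), among them the collagens COL1A2 with 4 and COL12A1 with 4 and the matricellular protein POSTN with 3. The strongest was 364 kb from COL12A1, with 19.5 in replicate 1 and 20.6 in replicate 2. A peak 3.77 kb from BGN, a small proteoglycan, had 12.47 and 20.6, where the partner was 16530 bp wide with its summit 7080 bp away. A peak 48.6 kb from TNC, tenascin C, had 2.44 and 25.02, with a partner of 5967 bp against its own 454 bp.

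Of 22 genes of TGF-beta and BMP signalling, 13 (59.1%) were nearest to a member (31 members, 3.99 per Mb). The ligand subunit INHBA had 9, the BMP target ID2 had 6, and the receptor TGFBR2 had 4. Peaks 11.2 kb from ID3 and 5.35 kb from ID1, targets of BMP signals, had 4.94 and 28.9, and 10.3 and 11.14. The 28.9 at ID3 was the value of a partner of 26975 bp with its summit 5542 bp away, against 2723 bp for the member. Of 30 mesenchymal transcription factors, 14 (46.7%) were nearest to a member (31 members, 2.43 per Mb), with 8 for ZEB2, 4 for RUNX1 and 3 for TBX15. The strongest near FOXP1 had 17.2 and 11.6 and that near RUNX1 had 10.6 and 7.73.

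Of 12 AP-1 and immediate early genes, 5 (41.7%) were nearest to a member (22 members, 8.57 per Mb), and 15 of the 22 belonged to MYC. Without MYC, 7 members remained, or 5.76 per Mb. JUN, the AP-1 subunit, had 4, the strongest 118 kb away with 8.17 and 8.83, and FOS, JUND and EGR1 had 1 each. The JUND peak, 12.1 kb away, had 13.5 and 11.07. Of 21 FGF and WNT genes, 11 (52.4%) were nearest to a member (14 members, 2.17 per Mb), and the strongest was 93.6 kb from the receptor FGFR1, with 8.87 and 9.20. Those near DKK2, a WNT inhibitor, and AXIN2, a WNT target, had 6.74 and 6.23, and 4.70 and 6.22.

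Members also lay nearest to genes of other tissues. Of 16 neural genes, 8 were nearest to a member (12 members, 2.66 per Mb), and H3K4me3 was at the TSS of 15 of the 16. Peaks near NEFL, a neurofilament, GAP43, a growth cone protein, and STMN2, a stathmin, had 8.47 and 5.50, 8.37 and 5.55, and 5.95 and 5.92. Of 13 blood and endothelial genes, 3 (23.1%) were nearest to 1 member each (1.81 per Mb), and none of these 3 had H3K4me3 at its TSS. Their peaks were weak, with 3.09 and 4.06 for the endothelial receptor TEK, 2.74 and 3.48 for the leukocyte phosphatase PTPRC and 2.32 and 2.71 for the endothelial cadherin CDH5. Of 9 epithelial genes, 2 (22.2%) were nearest to a member (3 members, 2.25 per Mb), with 3.12 and 3.97 for the keratin KRT18 and 3.53 and 3.11 for EPCAM. Of 10 liver genes, 0 were.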

How the data were processed

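The deposited files were 6 narrowPeak lists of PEFs, 1 per library. The 2 input libraries, 1 for the histone marks and 1 for CTCF, were not used here. Per the labels' processing notes and the methods, the authors mapped reads with Bowtie2, removed duplicates and called peaks with MACS2 against input in each library, on Sscrofa11.1. Versions are not given in the sources used here. The lists give an integer score (not used), fold enrichment as a ratio over input, and the authors' p- and q-values as −log10. The stated q limit was 0.01, but the deposited lists reach q-values near 0.05. Overlap was at least 1 bp, and where a member overlapped several replicate 2 peaks (119 members) the one of highest fold enrichment was its partner. Genes were 28077 RefSeq genes, 19487 of them protein-coding. Background tiles were non-overlapping stretches with the middle outside genes, no base within 2.5 kb of a TSS and none unknown. The membership rule and motif search were tested on simulated data. Python 3.11.15, numpy 2.4.6, pandas 2.3.3 and scipy 1.17.1 were used. Named peaks were those of highest (6), lowest (3), farthest (3), widest (3) and most AP-1 (3) ranks, up to 3 per list and those at the thresholds, and the genes nearest to most members. Members, lists and motifs were chosen with earlier results of these data known.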

Additional observations from a re-analysis of the deposited data

How the results depend on the processing

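For 9 results, each under 16 to 20 alternatives, 106 of 152 recomputed values stayed within the spread between replicates, the interval of a share or 1.5 times a count, and the 2 differences in fold enrichment kept their sign. Motif densities around summits, the other motifs and members per Mb were not recomputed. The 3744 members became 2460 with isolation over 25 kb and 1906 with isolation from every shared H3K27ac peak. The same 2 choices gave median TSS distances of 40257.5 and 56282.5 bp and repeat shares of 24.6% and 25.2%. Isolation from every shared peak also gave a median fold enrichment of 4.34, a difference from intragenic peaks of 0.203, 73.9% of members with a marked nearest gene and 35 listed genes in place of 68. Keeping only peaks with −log10 q of at least 5 gave a median fold enrichment of 5.53, a difference from clustered distal peaks of 0.0140, an AP-1 share of 15.5% and a repeat share of 23.7%. A q-value of at most 0.01 gave 4.49 and 37665 bp. An overlap of 50% of both peaks gave 4.66, 23.5% and 35972 bp. The TSS distance was 41070 bp with a 5 kb limit, 40657 bp with all transcript starts, 37198 bp with replicate 2 as the anchor (repeats 23.9%), 38726.5 bp for members in both anchorings (repeats 24.4%) and 72491.5 bp with protein-coding genes only (repeats 23.9%). AP-1 shares were 10.3% in 200 bp, 60.7% in 1000 bp, 27.6% at the peak midpoint (repeats 23.2%; 26.6% in 1000 bp) and 10.7% for a middle G or C. Those at the midpoint, for the middle base and for members in both anchorings were chosen after seeing the data. H3K4me3 within 2.5 kb of the TSS gave 80.3%. Leaving out 1 library at a time gave 3749 to 4150 members, a median fold enrichment of 3.88 to 4.55, a difference from intragenic peaks of 0.234 to 0.338, from clustered distal peaks of 0.188 to 0.277, AP-1 shares of 16.3 to 17.3%, repeat shares of 23.5 to 24.2%, TSS distances of 37267 to 40061 bp, marked nearest genes of 76.6 to 78.8% and 64 to 70 listed genes. The causes were not tested. No paired analysis was possible because no result comes from a fitted test. The differences in fold enrichment were already taken within each library. Read depth is unknown from the lists, which limits what can be said of peaks absent from 1 replicate.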

Other observations

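Within the isolated intergenic peaks, strength and AP-1 matches were related differently depending on the window. Members were divided by mean fold enrichment into 4 groups of 936, and from the lowest to the highest group the share with an AP-1 match in 300 bp at the summit was 19.02%, 19.1%, 14.9% and 13.7%, whereas in 1000 bp it was 55.6%, 60.5%, 60.9% and 65.8%. At the middle of the peak it was 25.6%, 25.5%, 28.7% and 30.6%. The median width was 734.5, 881.5, 1209 and 1789 bp in the same order, and per kb of peak the matches numbered 0.754, 0.770, 0.772 and 0.704. The part of width in these shares was not tested.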
